A study of Macaca fascicularis with 2 samples.

Results

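The genes described here were the ID genes *ID1*, *ID2*, *ID3* and *ID4* and the inhibitory SMAD genes *SMAD6* and *SMAD7*. They were named as 2 groups of genes, with no limit on a measured value. Of the 6 genes, 5 were among the 21371 genes counted, and *SMAD6* was not among the genes analysed here. Articular cartilage (AC) of the femoral condyle and nucleus pulposus (NP) of the L3/4 disc were taken from male wild-type cynomolgus monkeys (Macaca fascicularis), 3 years old, with no treatment. The labels name 3 tissue samples, an AC and an NP sample numbered 3 and an AC sample numbered 4, whereas the cells carry 4 tags. By the account of the study, these samples came from 2 monkeys. The tissues were digested with an enzyme mixture for several hours, and the cells were marked with sample tags, sorted for living cells and pooled in 1 TAS-seq library, a method that amplifies the RNA captured from single cells on beads. The library held 5723 cells, of which 5674 carried 1 of the 4 tags A951 to A954, 42 were marked as doublets and 7 had no tag. Which tag belongs to which tissue is not given in the sources used here. The tags are therefore given by name, and the 2 tissues are described together.

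BMPs are secreted ligands that bind pairs of receptor kinases, and the receptors phosphorylate SMAD proteins that enter the nucleus and switch on target genes. The ID genes are among the best known targets, and their proteins bind basic helix-loop-helix factors such as E proteins and keep them from DNA. *SMAD6* and *SMAD7* are targets as well, and their proteins block the receptors and so close a feedback loop. ID genes are also immediate early genes in many cells, as is *JUN*, which encodes a subunit of the AP-1 factor.

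Cells with at least 5 reads each of *KRT19*, a keratin, and *TBXT*, the notochord factor brachyury, were taken as notochordal cells, which are the large vacuolated cells of the young NP. This gave 310 notochordal and 5364 other cells. The notochordal cells were 67 of 997 cells with tag A951, 236 of 1132 with A952, 5 of 1383 with A953 and 2 of 2162 with A954. Of the 10 notochordal markers counted, *KRT19* and *TBXT* chose the cells, and *SHH* and *NRN1* had a read in at least 10% of cells, the limit for a comparison, in the notochordal group alone, so these 4 could enter only as higher genes. *C3orf49*, *SRGN* and *APOE* were higher in these cells but were also markers of a cluster of cells from this study, so they are not independent. The remaining markers were *CDH2*, at 119.6 rpm (reads of the gene per 1000000 reads of all genes, pooled over the cells of a group) in notochordal and 1.16 rpm in other cells, *NCAM1*, at 506.4 against 25.2 rpm, and *NOTO*, which was near 0 in both groups at 0.015 and 0.05 rpm. Of the 10 chondrocyte markers, 8 were lower in the notochordal cells, among them *COL2A1* at 1269 against 20076 rpm, while *SOX9* and *ACAN* were higher. The marker sums of endothelial cells were 4.57 and 3.89 rpm and those of immune cells 28.0 and 23.0 rpm in notochordal and other cells, with all 7 and 6 genes counted above 0. Those of fibroblasts were 149.5 against 2508 rpm and those of bone cells 4.42 against 54.2 rpm, both lower in the notochordal cells of each tag. The summed mural and muscle markers were 93.0 against 38.2 rpm, and the difference lay in *ACTA2* at 70.7 against 6.53 rpm. This sum was higher in the notochordal cells of A952 (111.8 against 39.4 rpm) but not of A951 (30.4 against 40.4 rpm). Their part in the results below was not tested.

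The median notochordal cell had 186370 reads and 4061 genes, and the median other cell 198674 reads and 3816 genes. Reads were counted without molecular identifiers, so PCR copies of 1 molecule are counted separately. A gene's level below is this pooled rpm, and a difference is the log2 ratio of the pooled levels, notochordal over other cells. Intervals are exact 95% limits for counting error only. There was 1 library and no replicate, and cells are not replicates, so no test was made and no difference carries a p-value. Levels of different genes are not compared because they were not scaled by gene length. A gene was compared between the groups if at least 10% of the cells of either group had a read. Single reads were common in cells that should lack a gene. Among the other cells, the notochordal genes *NRN1*, *SRGN* and *C3orf49* had at least 1 read in 8.41%, 23.4% and 33.2% of cells, but at least 5 reads in 0.913%, 2.72% and 1.38%. Shares of cells are therefore given for at least 5 reads.

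Of the 5 genes, 3 were higher in the notochordal cells by a log2 ratio of at least 1 (*ID1*, *ID3* and *ID4*), and none was lower by as much (*ID2* and *SMAD7* were lower by less). Among the 9961 genes compared, 24.4% were higher and 11.4% lower by that size. The median log2 ratio of the 5 genes was 1.51, and that of all genes compared was 0.30.

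**Figure D1:**
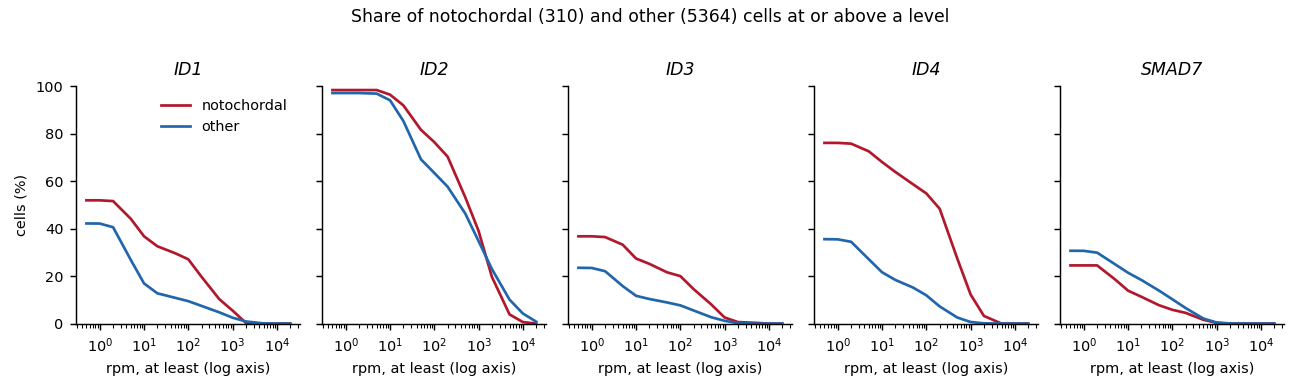
Each panel shows for 1 gene the percent of cells (vertical axis) with at least the level on the horizontal axis (rpm, log axis), for the 310 notochordal cells (red) and the 5364 other cells (blue). The red curve lies above the blue one for *ID1*, *ID3* and *ID4* over most of the range and below it for *SMAD7*, and the curves of *ID2* cross between 1000 and 2000 rpm.

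*ID4* differed most. Its pooled level was 356.7 rpm (95% interval 352.1 to 361.2) in the notochordal and 47.3 rpm (46.9 to 47.7) in the other cells, a log2 ratio of 2.91, above 95.8% of the genes compared. At least 5 reads of *ID4* were found in 61.9% of notochordal cells (56.3% to 67.4%) and in 18.3% of other cells (17.3% to 19.4%). With every cell thinned to 50000 reads, the shares were 54.8% and 12.2%. The pooled *ID4* level of notochordal cells was 420.3 rpm with tag A951, 352.6 with A952, 125.2 with A953 and 186.4 with A954, and that of other cells was 43.6, 58.8, 42.5 and 47.8 rpm in the same order. The notochordal values were thus above the other values in all 4 tags, although A953 and A954 held only 5 and 2 notochordal cells. The A954 value came from 49 reads in 1 of its 2 cells. The share of all genes that were higher in all 4 tags was not counted.

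*ID1* and *ID3*, both well known BMP targets, were higher by a smaller size. The *ID1* level was 206.6 rpm (203.1 to 210.0) in notochordal and 72.6 rpm (72.1 to 73.1) in other cells, a log2 ratio of 1.51, and the *ID3* level was 115.9 rpm (113.4 to 118.6) against 37.2 rpm (36.8 to 37.5), a log2 ratio of 1.64. At least 5 reads of *ID1* were found in 30.6% of notochordal (25.6% to 36.1%) and 12.4% of other cells (11.5% to 13.3%), and of *ID3* in 24.5% (19.8% to 29.7%) and 10.1% (9.35% to 11.0%). Both genes were therefore below 5 reads in most cells of either group. By tag, notochordal cells had 125.4, 230.8, 117.3 and 3.80 rpm of *ID1* (A951 to A954) and other cells 81.2, 75.1, 63.1 and 74.4 rpm. For *ID3* the values were 94.3, 119.1, 86.4 and 753.0 rpm in notochordal and 35.4, 36.7, 41.7 and 35.2 rpm in other cells. Among the tags with more than 5 notochordal cells, *ID1* was higher by a log2 ratio of 0.63 in A951 and 1.62 in A952, and *ID3* by 1.41 and 1.70. The *ID1* difference was carried largely by tag A952: without it the log2 ratio was 0.76. It was also smaller when each cell had the same weight, at 0.90 for the mean of the cells' rpm with 1 rpm added and 0.96 for thinned cells. The thinned ratio of *ID3* was 1.09.

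*ID2* behaved in another way. Its pooled level was lower in notochordal cells, 1131 rpm (1123 to 1139) against 1977 rpm (1975 to 1980), a log2 ratio of -0.81, but more of these cells had at least 5 reads, 88.1% (83.9% to 91.5%) against 80.3% (79.2% to 81.4%). The median cell had 593.1 rpm of *ID2* in the notochordal and 399.9 rpm in the other group, and the highest cell 12365 and 55090 rpm. The lower pooled level of *ID2* thus went with fewer cells of very high level, and the mean of log2(rpm + 1) was higher in notochordal cells by 0.51. By tag, the notochordal cells had 1521, 1056, 851.0 and 7.61 rpm of *ID2* and the other cells 1609, 1686, 2116 and 2119 rpm. The pooled level was thus lower in notochordal cells in every tag, and in A951 by only 0.08 on the log2 scale. The A954 value came from 2 reads in 2 cells. The median notochordal cell had more *ID2* than the median other cell in A951 (1036 against 237.8 rpm), A952 (450.2 against 261.2) and A953 (713.1 against 423.5). In A954 it had less (4.59 against 506.2 rpm).

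*SMAD7*, the inhibitory SMAD that blocks both BMP and TGF-beta receptors, did not follow *ID1*, *ID3* and *ID4*, and like *ID2* it had a lower pooled level in notochordal cells. It had 29.0 rpm (27.7 to 30.3) in notochordal and 42.2 rpm (41.9 to 42.6) in other cells, a log2 ratio of -0.54, and at least 5 reads in 11.9% (8.54% to 16.1%) and 18.6% of cells (17.6% to 19.7%). By tag, the notochordal cells had 30.3 and 30.1 rpm of *SMAD7* in A951 and A952 and no read in the 5 and 2 cells of A953 and A954. With 3 reads as the limit for a count of 0, these groups allow up to 1.32 and 11.4 rpm. The other cells had 58.5, 49.7, 29.1 and 41.8 rpm. The difference was close to 0 (-0.02) when all cells with at least 1 read of *KRT19* and of *TBXT* were taken as notochordal.

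**Figure D2:**
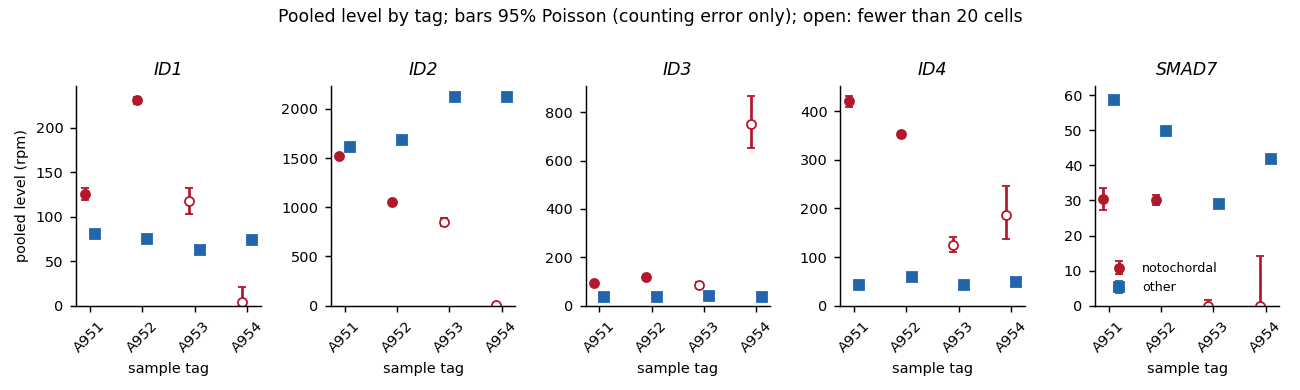
Pooled level of each gene (rpm, vertical axis) in notochordal (red circles) and other cells (blue squares) of the 4 tags. Bars are 95% Poisson intervals of the reads and open symbols mark groups of fewer than 20 cells. For *ID4* the red symbols lie above the blue ones in all 4 tags, and for *ID2* and *SMAD7* below them.

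Within each group the reads of these genes were concentrated in few cells. In the other cells, the 5% of cells with the most reads of a gene held 79.6% of the *ID1* reads, 82.9% of the *ID3* reads, 63.7% of the *ID4* reads, 66.2% of the *SMAD7* reads and 48.8% of the *ID2* reads. In the notochordal cells the same shares were 52.5% for *ID1*, 52.8% for *ID3*, 33.5% for *ID4*, 81.4% for *SMAD7* and 29.5% for *ID2*. The reads of the 4 ID genes were thus spread over more of the notochordal cells, and those of *SMAD7* over fewer. For *ID1* this lay in A952 (48.8% against 85.0%), whereas the shares in A951 were 75.2% and 78.3%. The *SMAD7* difference also lay mainly in A952 (84.5% against 61.8%), with 64.9% and 60.6% in A951. None of *ID1*, *ID3* and *ID4* reached 5 reads in 22.3% of notochordal (17.8% to 27.3%) and 70.0% of other cells (68.8% to 71.2%), and all 3 genes did so in 10.0% (6.90% to 13.9%) and 2.52% (2.11% to 2.97%). The cells with all 3 genes were deeper, with a median of 307821 reads among notochordal cells against 141082 for those with none, and 228521 against 184634 among other cells.

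The same cells tended to have more than 1 ID gene. Among the other cells, 35.9% of those with at least 5 reads of *ID1* had at least 5 of *ID3*, against 6.49% of the rest, and 39.1% against 15.4% had at least 5 of *ID4*. Their median depth was 251789 against 192940 reads. Over all 5674 cells, Spearman's rho of the rpm of *ID1* and *ID3* was 0.226, and it was 0.183 after the ranks of total reads and genes detected were regressed out. In the tags A951 to A954 it was 0.203, 0.236, 0.198 and 0.248. All rho values here describe cells of 1 library that share its depth and composition, and in such sparse counts most are small.

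In the notochordal cells another pair stood out. The rho of *ID2* and *ID4* was 0.405 over 310 notochordal cells and 0.116 over 5364 other cells. It was 0.39 with cells thinned to 50000 reads, but 0.16 in the 67 notochordal cells of A951 and 0.46 in the 236 of A952, so that it lay mainly in 1 tag. In A952, notochordal cells with at least 5 reads of *ID4* had a pooled *ID2* level of 1435 rpm (141 cells) and those with fewer 458.7 rpm (95 cells), with median depths of 207319 and 177169 reads. In A951 the *ID2* levels were 1532 and 1483 rpm (46 and 21 cells). The rho of *ID1* and *ID4* in notochordal cells was -0.02.

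**Figure D3:**
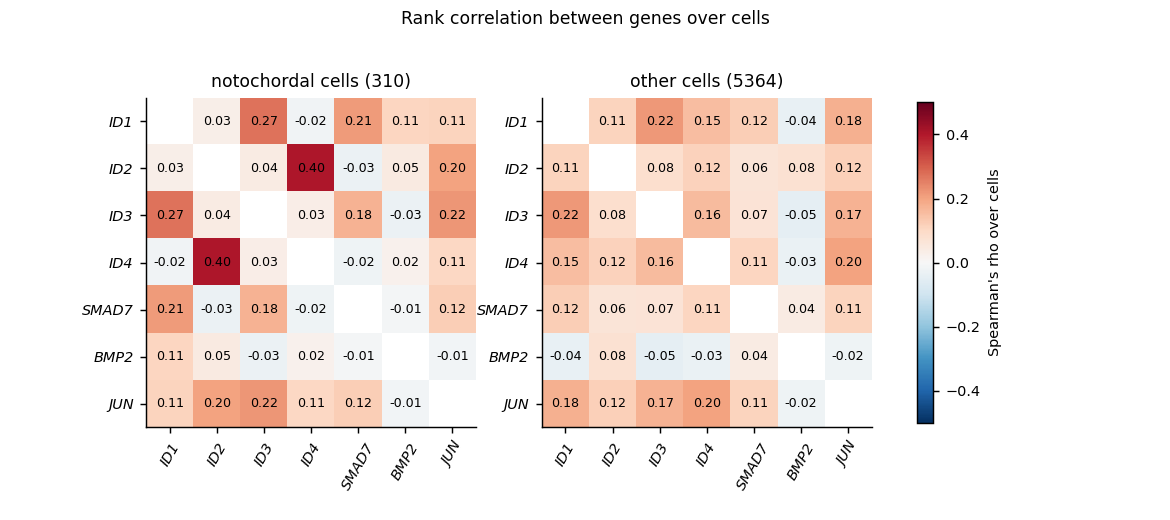
Spearman's rho of rpm between each pair of genes over the 310 notochordal cells (left) and the 5364 other cells (right), with *BMP2* and *JUN* as the last 2 rows and columns. The largest value is that of *ID2* and *ID4* in the notochordal cells, and those with *BMP2* lie between -0.05 and 0.11.

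The ID genes varied with *JUN* over cells. *JUN* was higher in notochordal cells, at 3104 against 518.9 rpm, a log2 ratio of 2.58. The rho with *JUN* over all cells was 0.236 for *ID4*, 0.191 for *ID1*, 0.189 for *ID3*, 0.123 for *ID2* and 0.105 for *SMAD7*. One of the 5 genes (*ID4*) had a rho of at least 0.2, as had 0.214% of the other 9343 genes detected in at least 10% of cells, and *ID4*, *ID1* and *ID3* were in places 11, 23 and 24 of these genes. The median rho was 0.189 for the 5 genes and 0.0345 for all genes. After total reads and genes detected were regressed out, the medians were 0.154 and 0.00219, and none of the 5 reached 0.2 (*ID4* was at 0.197). The 5 genes themselves had a rho of 0.136 to 0.230 with total reads. For *ID4* the rho with *JUN* was 0.200 in the other cells alone and 0.105 in the notochordal cells, and for *ID1* it was 0.178 and 0.110. It was larger in the notochordal cells for *ID2* (0.119 and 0.203), *ID3* (0.173 and 0.221) and *SMAD7* (0.113 and 0.123). In the tags A951 to A954, *ID4* had a rho with *JUN* of 0.27, 0.30, 0.23 and 0.17. The values of *ID1* in the tags were 0.23, 0.26, 0.17 and 0.14. The relation had the same sign in each tag.

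In the other cells, *ID1*, *ID3* and *ID4* were highest in the cells with the most *JUN*. When the 5364 other cells were ordered by *JUN* rpm and cut into 4 groups of 1341 cells, the *ID1* level was 27.4, 27.7, 39.2 and 188.5 rpm from the lowest to the highest group. The share of cells with at least 5 reads of *ID1* was 5.74%, 7.90%, 10.1% and 25.8% (23.5% to 28.2%). *ID3* had 20.6, 19.1, 23.6 and 82.6 rpm, and *ID4* had 28.2, 30.5, 37.9 and 89.4 rpm, with at least 5 reads in 10.8%, 14.3%, 16.6% and 31.5% of cells. The shares of *ID1* and *ID4* thus went up over the first 3 groups, and the step to the fourth group was the largest for each of the 3 genes. *ID2* differed less, with 1699, 2027, 1939 and 2186 rpm, and *SMAD7* had 42.6, 31.9, 38.2 and 56.7 rpm. Median depth in the 4 groups was 169020, 217669, 197535 and 212928 reads.

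The notochordal cells, cut in the same way into 4 groups of 77 or 78 cells, did not show this pattern for each gene. *ID1* had 118.8, 225.5, 284.7 and 166.2 rpm from the lowest to the highest *JUN* group, and at least 5 reads in 17.9%, 36.4%, 35.9% and 32.5% of cells. *ID4* had 411.1, 165.2, 197.0 and 714.1 rpm and at least 5 reads in 67.9%, 49.4%, 52.6% and 77.9% of cells. *ID3* had 115.2, 49.99, 110.8 and 199.7 rpm and at least 5 reads in 11.5%, 19.5%, 29.5% and 37.7% of cells. *ID1* was thus lowest in the group with the least *JUN* and its share of cells was level above it, *ID4* was high at both ends, and *ID3* went up step by step in its share of cells but not in its pooled level. The lowest group was also the shallowest, with a median of 140816 reads against 186787 in the highest.

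The highest *JUN* group was set against the other 4023 cells. The log2 ratio was 2.58 for *ID1*, 1.97 for *ID3*, 1.46 for *ID4*, 0.61 for *SMAD7* and 0.20 for *ID2*. Thus 3 of the 5 genes were higher by at least 1, as were 1.54% of the 9557 genes compared. Within the tags A951 to A954, with the groups formed anew in each, the log2 ratio of *ID1* was 1.90, 3.01, 2.99 and 2.43, that of *ID3* was 2.52, 3.46, 1.24 and 1.92, and that of *ID4* was 1.44, 1.84, 1.65 and 1.22. All 12 of these values were above 1.

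*BMP2*, a ligand known to induce ID genes, was much lower in notochordal cells, 26.2 rpm against 716.0, a log2 ratio of -4.77, and had at least 5 reads in 7.74% and 69.1% of cells. Its rho over all cells was -0.0515 with *ID1*, -0.0644 with *ID3* and -0.0924 with *ID4*, and 0.0660 with *ID2* and 0.0488 with *SMAD7*. None of the 5 genes had a rho of at least 0.2 with *BMP2*, as had 0.46% of the other 9343 genes, and the medians were -0.0515 for the 5 and 0.0351 for all genes. From the highest rho to the lowest, *ID1*, *ID3* and *ID4* were in places 9189, 9246 and 9303 of these genes and *ID2* and *SMAD7* in places 1887 and 3105, and none of the 9343 genes had a rho of -0.2 or less. The values are small and come from sparse counts, and they are given as a description. They differed between tags and groups: *ID4* had a rho with *BMP2* of -0.163, -0.246, 0.0220 and -0.0184 in A951 to A954, and *ID1* one of -0.0691, -0.131, -0.00946 and -0.0230. In the notochordal cells alone the rho was 0.106 for *ID1* and 0.0220 for *ID4*, and over cells with a read of both genes it was -0.20 for *ID1* and -0.21 for *ID3*. The rho of *BMP2* and *JUN* was -0.0756, and with the ranks of *JUN* regressed out the median over the 5 genes was -0.038. With total reads and genes detected regressed out, the medians were -0.0845 for the 5 genes and -0.00071 for all genes.

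In the other cells, *ID1* and *ID3* were lowest where *BMP2* was highest. From the lowest to the highest of 4 groups of other cells ordered by *BMP2*, *ID1* had 122.6, 74.8, 65.7 and 39.4 rpm and at least 5 reads in 15.6%, 14.6%, 12.7% and 6.71% of cells (5.43% to 8.19% in the highest). *ID3* had 66.1, 38.9, 30.9 and 20.2 rpm. *ID2* was higher in the same order, with 1320, 1818, 2177 and 2427 rpm, while *ID4* (66.8, 45.2, 41.5 and 41.1 rpm) and *SMAD7* (45.5, 40.3, 42.7 and 41.2 rpm) were nearly level above the lowest group. The highest group against the rest gave a log2 ratio of -1.09 for *ID1* and for *ID3*, -0.26 for *ID4*, -0.05 for *SMAD7* and 0.41 for *ID2*. Thus 2 of 5 genes were lower by at least 1, as were 1.38% of the 9434 genes compared. Within the tags the *ID1* ratio was -1.72, -1.95, -0.42 and -0.87 (A951 to A954), and the *ID3* ratio was -2.03, -2.08, -0.87 and -0.51, so that the sign held in each tag but the size did not. Without tag A951 the ratios were -0.96 for *ID1* and -0.92 for *ID3*, and without A952 they were -0.91 and -0.90, so that the count was 0 in both cases. Median depth was 156716, 215871, 231007 and 198302 reads in the 4 groups.

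**Figure D4:**
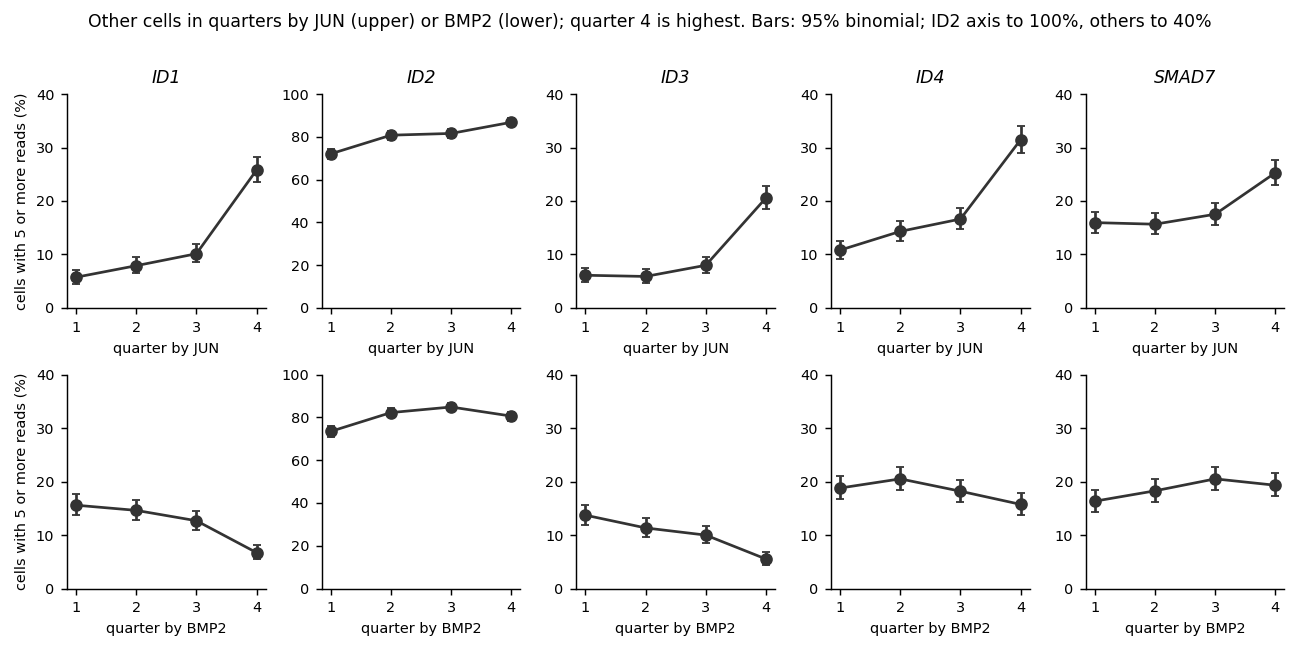
Percent of cells with at least 5 reads of each gene (vertical axis) in 4 equal groups of the 5364 other cells, ordered by *JUN* (upper row) or *BMP2* (lower row), with exact 95% intervals. *ID1*, *ID3* and *ID4* are highest in the cells with the most *JUN*, and *ID1* and *ID3* are lowest in those with the most *BMP2*.

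The cells were also grouped by both genes. Among other cells of the highest *JUN* group, the *ID1* level was 274.5, 192.3, 174.0 and 111.4 rpm from the lowest to the highest *BMP2* group, and at least 5 reads were found in 33.0% of 379 cells, 29.5% of 342, 25.8% of 329 and 12.0% of 291. For *ID3* these shares were 27.7%, 21.9%, 20.4% and 9.97%. In the third *JUN* group *ID1* had 80.9, 34.7, 32.6 and 23.8 rpm and shares of 12.4%, 10.2%, 11.1% and 7.26%. In the second it had 44.4, 32.3, 22.1 and 17.8 rpm and shares of 8.91%, 10.2%, 7.44% and 5.25%, and in the lowest 42.2, 25.7, 31.1 and 14.1 rpm and shares of 5.38%, 7.94%, 6.79% and 3.15%. The *ID1* level was thus highest in the lowest *BMP2* group and lowest in the highest one within each *JUN* group, while the shares fell at each step in the highest *JUN* group alone. The step in *ID1* from low to high *JUN* was therefore present at every level of *BMP2*.

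The genes most like each of the 5, by rho over all 5674 cells, were of different kinds. For *ID1* they were *KLF10* (0.237), *ID3* (0.226), *GADD45B* (0.216), *PER1* (0.210) and *MIDN* (0.208). For *ID3* they were *ID1* (0.226), *KLF10* (0.200), *NR1D1* (0.194), *PER1* (0.189) and *JUN* (0.189). *KLF10* is an early target of TGF-beta, and *PER1* and *NR1D1* are clock genes. For *ID4* they were *JUN* (0.236), *FOSB* (0.219), *KLF10* (0.219), *NR1D1* (0.216) and *KRT19* (0.216), and the last chose the notochordal cells and had a rho of 0.0840 with *ID4* in the other cells. *ID2* shared none of these names. Its list was *INHBA* (0.190), *IER3* (0.186), *NFKBIA* (0.179), *ASPN* (0.161) and *PRG4* (0.159), genes of an activin subunit, a stress response, an inhibitor of NF-kB, a matrix protein and the joint lubricant. For *SMAD7* it was *ERF* (0.223), *SKIL* (0.223), *MYC* (0.208), *TMEM88* (0.208) and *SNAI2* (0.195), where *SKIL* encodes a co-repressor of SMADs.

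The genes around the ID genes in the pathway are given next, by role. Of the 9070 genes with a read in at least 10% of the cells of both groups, 21.4% were higher and 11.2% lower by a log2 ratio of at least 1, with a median of 0.26, and the counts below are over genes detected in this way. The ratios are pooled over tags, so group and tag are mixed in them. Tags A951 and A952 held 67 and 236 of the 310 notochordal cells. Tags A953 and A954 held 1378 and 2160 of the 5364 other cells. All 8 ligands of the BMP and TGF-beta family were lower in notochordal cells by that size, against 11.2% of all genes, with a median of -3.03. Among them were *BMP2* (-4.77), *INHBA* (-3.54) and *BMP6* (-3.52). *GDF5*, a ligand of joint formation, reached 10% in the other cells alone, so it could enter only as a lower gene (-4.79). *INHBA* was at 551.2 against 6423 rpm, and the sum over all 15 ligands counted, detected in both groups or not, was 802.1 against 8214 rpm. The 3 ligands with the highest rho to *ID1* were *TGFB3* (0.114), *GDF10* (0.0921) and *GDF5* (0.0815). The 8 ligands detected in both groups were thus lower where *ID1*, *ID3* and *ID4* were higher.

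Of the 11 receptor and co-receptor genes compared, 3 were higher and 5 lower by at least 1, with a median of -0.62. The higher count was near the 21.4% of all genes, and the lower count was above the 11.2%. *ACVR2A*, a type II receptor, was at 20.5 against 5.71 rpm (1.85), and *ENG* (-3.11), *RGMA* (-2.61) and *TGFBR1* (-1.88) were lower. *ACVR1*, a type I receptor for BMPs, was at 15.4 against 51.9 rpm, and its rho with *ID1* was 0.0729. *TGFBR2* (0.0952) and *TGFBR3* (0.0746) had the highest rho to *ID1* among the receptors. Of the 6 SMAD genes that carry the signal, none was higher and 2 were lower by at least 1, *SMAD3* (-1.52) and *SMAD9* (-1.39), while *SMAD2* was at 0.68 and *SMAD5* at -0.29. The rho with *ID1* was 0.106 for *SMAD3*, 0.0822 for *SMAD1* and 0.0705 for *SMAD2*.

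Of the 8 antagonists, which hold ligands or block receptors outside the nucleus, 2 were higher and 3 lower, the first close to the share of all genes (21.4%) and the second above it (11.2%). *CHRDL1*, a chordin-like BMP antagonist, was at 495.8 rpm in notochordal and 25.4 rpm in other cells (4.29), whereas its relative *CHRDL2* (-2.75) and *GREM1* (-5.21) were lower. *SOST* (-4.31) reached 10% in the other cells alone. *BAMBI*, a pseudoreceptor, had the highest rho to *ID1* in this list (0.103), followed by *GREM1* (0.0772) and *TWSG1* (0.0738). Of the 7 SMAD ubiquitin ligases and co-repressors, none was higher and 4 were lower, *PMEPA1* (-2.75), *SMURF1* (-1.33), *TGIF1* (-1.33) and *LEMD3* (-1.23). *SKIL* was at 221.6 against 262.4 rpm and had a rho of 0.150 with *ID1*, *SKI* one of 0.0613 and *TGIF1* one of 0.0375. *SKIL* was also among the genes most like *SMAD7*.

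Among other targets of the pathway, *RUNX2*, a factor of bone and cartilage development, had a higher pooled level (1.27) and *CCN2* a lower one (-2.79). *RUNX2* was at 8.13 against 3.37 rpm, but fewer notochordal than other cells had at least 1 read of it, 23.9% against 27.6%. *DLX5* (-4.67), a BMP target in bone, reached 10% in the other cells alone. The rho with *ID1* was 0.112 for *DLX5* and 0.0558 for *RUNX2*. Of the 3 E protein genes, whose products the ID proteins bind, *TCF4* was lower (-1.54), and *TCF12* (0.38) and *TCF3* (0.10) were within the limit. Their rho with *ID1* was 0.0755, 0.0604 and 0.0812. The rho values with *ID1* in the ligand, receptor, SMAD, antagonist, co-repressor, target and E protein lists were small and in part shared with depth. After total reads and genes detected were regressed out, the rho values went from -0.0850 (*TGFB1*) to 0.0948 (*SKIL*). Those of *DLX5* (0.0736), *TGFB3* (0.0665) and *GDF10* (0.0513) came after *SKIL*, and *BMP2* (-0.0845) and *PMEPA1* (-0.0766) were also among the lowest. Those of *ACVR1*, *SMAD2*, *TWSG1* and *TCF12* were -0.00514, -0.00482, -0.00102 and -0.00567.

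Immediate early genes were mostly higher, as were *ID1*, *ID3* and *ID4*. Of the 22 compared, 15 were higher in notochordal cells by at least 1 and 2 were lower, against 21.4% and 11.2% of all genes, with a median of 1.58 against 0.26. *KLF10* had the highest ratio (2.63), followed by *JUN*, *DUSP1* (2.45) and *HES1* (2.09), a Notch target. Their median rho with *ID1* was 0.152, or 0.0906 with depth regressed out, and the highest values were those of *KLF10* (0.237), *PER1* (0.210) and *FOSB* (0.203). Some genes of this list, *JUN*, *PER1* and *HES1* among them, were named with *ID1* and *ID3* as markers of a cluster of cells from this study. Their rho with *ID1* is therefore not independent of that cluster. The lower genes were *IER3* at 195.3 against 720.8 rpm and *CCN1* at 981.8 against 2628 rpm. With depth regressed out, the rho with *ID1* over all cells was 0.0371 for *IER3* and -0.00306 for *CCN1*. Of the 15 higher genes, 13 lay above both, from *KLF10* (0.178) down. The other 2, *FOSL2* (0.0285) and *KLF6* (0.0303), lay between them. Of the early genes within a log2 ratio of 1, *ZFP36* (0.114), *KLF4* (0.112) and *MYC* (0.0431) also lay above both. *EGR2* (0.0256) lay between *IER3* and *CCN1*, and *FOSL1* (-0.0127) lay below both. These rho values join the cells of both groups, and only depth was regressed out of them. *ID1* was itself higher in notochordal cells, so a gene picked as higher there can gain rho from the group alone. The order of higher and lower genes is therefore partly built in and is not a separate result. Immediate early genes, *JUN* among them, can be induced while tissue is digested. The part of digestion in the results was not tested.

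**Figure D5:**
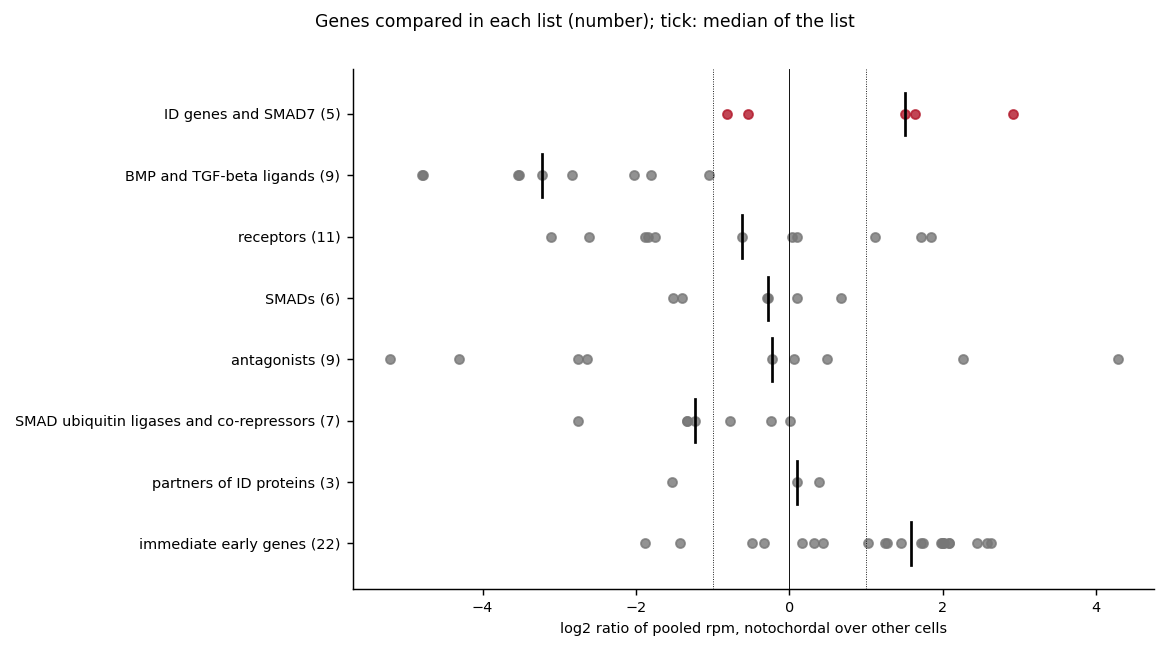
Log2 ratio of pooled rpm, notochordal over other cells (horizontal axis), for each gene compared in the lists named at the left, with the number of genes in parentheses. Points are genes, black ticks medians, and dotted lines log2 ratios of -1 and 1. All 9 ligands lie left of -1, *GDF5* among them, while *ID1*, *ID3*, *ID4* and 15 of 22 immediate early genes lie right of 1.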

How the data were processed

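Alignment to the genome of Macaca fascicularis was done by the authors with HISAT2 2.2.1. featureCounts 2.0.2 then assigned the reads to whole genes by strand, with reads that fit several genes allowed, and velocyto summed them for each cell, with no molecular identifiers. The genome build is not given in the sources used here. The deposited values are raw read counts, 1 for each gene in each cell, with no scaling. A second matrix of 1358 cells, which no sample label lists, was not used, and the tag library holds no gene expression. Cells with 1 of 4 tags were kept; doublets and untagged cells were left out. The 5674 cells had 24907 to 1649566 reads (median 198094).

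Pooled rpm, log2 ratios, shares of cells with exact Clopper-Pearson limits, Poisson limits and Spearman's rho were computed with Python 3.11.15, numpy 2.4.6 and scipy 1.17.1. For a ratio, read totals under 3 were raised to 3. Correlations used genes with a read in at least 10% of cells. A log2 ratio of 1 in either direction and a rho of 0.2 were the limits for counting genes. No test was made, because 1 library has no replicate. The code was tested on simulated data.

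The genes named are the members, *BMP2*, *JUN* and the 5 genes with the highest rho to each member. Of each list, the 4 with the largest absolute log2 ratio and the 3 with the highest rho to *ID1* are named too. *CCN1*, *IER3*, *FOSL2*, *KLF6*, *ZFP36*, *KLF4*, *EGR2*, *FOSL1*, *TGFB1*, the other marker genes and *SKIL*'s levels were named after their values were seen. One gene of the list of other targets is not reported here. The members and lists were chosen with earlier results of these data known. The alternatives were other scalings and definitions of notochordal cells, thinning to 50000 reads, limits of 200 to 9000 genes and 5% mitochondrial reads, removal of the top 1% of cells and of each tag, and values within tags. The groups of cells by *JUN* and *BMP2*, the *ID2* and *ID4* comparison within tags, and the list counts over genes detected in both groups, were chosen after seeing the data.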

Additional observations from a re-analysis of the deposited data

How the results depend on the processing

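The median log2 ratio of the 5 genes was 1.51 and stayed within 0.70 of it, the SD of the medians within A951 and A952, under all alternatives except 2. It was 0.76 without tag A952 and 0.11 as the mean of the ratios within the 4 tags, 2 of which held 5 and 2 notochordal cells. The number of genes with a ratio of at least 1 was 2 or 3 under every alternative. *ID2* passed -1 (-1.11) when ratios were centred on the median of all genes, which was 0.30, and *ID2* (-2.40) and *SMAD7* (-2.00) did so as the mean of the ratios within the 4 tags. The median rho with *JUN* was 0.189; it was 0.255 as Pearson's r of log2(rpm + 1), 0.279 over cells with a read of both genes and 0.123 in notochordal cells. The number of genes with a rho of at least 0.2 was 1; it was 3 with Pearson's r and with cells that had a read of both genes, 2 with thinning, in notochordal cells, without A953 and without A954, and 0 with reads and genes detected regressed out. The median rho with *BMP2* was -0.051; it was -0.114 with thinning, -0.127 over cells with a read of both genes and 0.022 in notochordal cells. The number at or above 0.2 was 0 throughout. The causes were not tested. Depth limits the shares of cells, which are higher in deeper cells, and rank values of genes with many cells at 0. With 2 monkeys in 1 library, spread between animals is unknown.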
